A study of Homo sapiens with 3 samples.

Results

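AP-1 is a family of dimeric transcription factors, and 9 genes of it and of the early growth factor response are described here in 3 stable derivatives of the PANC-1 cell line, which came from a human pancreatic ductal adenocarcinoma. The genes are JUN, JUNB, JUND, FOS, FOSB, FOSL1, FOSL2, ATF3 and EGR1, and every probe set that the platform annotation assigns to one of them alone was taken. That gave 23 probe sets for these 9 of 19775 named genes. The control line carried the blank retroviral MSCV vector, another expressed wild-type JMJD3, and the last a mutant JMJD3. JMJD3, the product of KDM6B, removes a repressive methyl mark from histone H3. The cells had no other treatment. The sources used here name neither the mutation nor the clonal state of the lines, and do not say how long the cells had been in their medium at lysis. With 1 array per line nothing could be tested, the values are descriptions of these 3 arrays, and their small number limits how precise they are.

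The JUN and FOS proteins pair through leucine zippers and bind short DNA elements in promoters and enhancers, and ATF3 can pair with JUN proteins. FOS proteins cannot pair with each other and need a JUN partner. EGR1 is a zinc finger factor of another family that binds GC-rich sites. FOS, FOSB, JUN, JUNB, ATF3 and EGR1 are immediate early genes, whose transcripts appear within minutes of a growth factor, stress or fresh serum and are short-lived, whereas JUND is made more steadily. MAP kinase signalling feeds into these genes through serum response factor, its ELK partners and JUN itself.

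JUN set the mutant JMJD3 line apart, with a signal 4.82-fold over control on its leading probe set and all 4 of its probe sets over 2-fold, as were 2.96% of all measured probe sets. The other 8 genes stayed within 2-fold of control in both JMJD3 lines. Most were somewhat higher than control in both, and EGR1 was lower with wild-type and higher with mutant JMJD3.

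The control regions of JUN, JUND and EGR1 are shown because these genes gave the largest difference, a difference of the steadier JUN relative, and the member that took opposite directions in the JMJD3 lines. Each stretch is the 250 bases before the RefSeq start site in GRCh38.p14. JUN lies on the minus strand at chr1:58784048-58784297, JUND on the minus strand at chr19:18281623-18281872 and EGR1 on the plus strand at chr5:138465229-138465478. Capitals mark TGACATCA in JUN, a variant AP-1 element known for binding JUN and ATF2, TGACGTCA, the cAMP response element, in JUND, and the pair of CArG boxes, to which serum response factor binds, in EGR1.
JUN: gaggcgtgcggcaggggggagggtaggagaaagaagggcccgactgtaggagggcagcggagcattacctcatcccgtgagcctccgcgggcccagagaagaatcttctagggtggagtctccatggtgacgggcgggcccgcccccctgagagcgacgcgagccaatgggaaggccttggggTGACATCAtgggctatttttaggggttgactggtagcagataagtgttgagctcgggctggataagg
JUND: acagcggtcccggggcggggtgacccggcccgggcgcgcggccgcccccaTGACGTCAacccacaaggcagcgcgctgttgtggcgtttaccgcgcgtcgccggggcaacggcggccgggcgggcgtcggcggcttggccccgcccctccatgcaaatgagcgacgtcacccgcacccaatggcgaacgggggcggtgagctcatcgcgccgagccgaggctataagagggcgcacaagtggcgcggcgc
EGR1: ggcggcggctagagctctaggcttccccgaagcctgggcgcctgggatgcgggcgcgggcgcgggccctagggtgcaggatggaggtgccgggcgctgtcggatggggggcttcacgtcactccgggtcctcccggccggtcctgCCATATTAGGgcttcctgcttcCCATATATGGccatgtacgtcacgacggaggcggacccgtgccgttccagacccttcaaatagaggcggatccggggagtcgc

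RefSeq windows were found for 8 of the 9 genes, with 2 starts for ATF3, and FOSL1 is not among them. Each motif was searched on both strands, except TATAAA, which was searched on the sense strand. TGACATCA was in the windows of 2 genes, JUN at 67 to 60 bases before the start and ATF3 at 123 to 116, and in 2.36% of 34788 distinct windows of this length. TGACGTCA was in JUND alone, against 1.64% of all windows. Its core TGACG, which every TGACGTCA also holds, was in 7 of the 8 genes, all but ATF3, and in 21.2% of all windows. EGR1 held CCATATTAGG and CCATATATGG, and 1.17% of all windows held a CArG box. The AP-1 element TGANTCA was in the window of none of them and in 6.59% of all windows, and TATAAA was in 4 of them and in 6.84%. These matches describe letters near a start site and not factor binding.

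**Figure D1:**
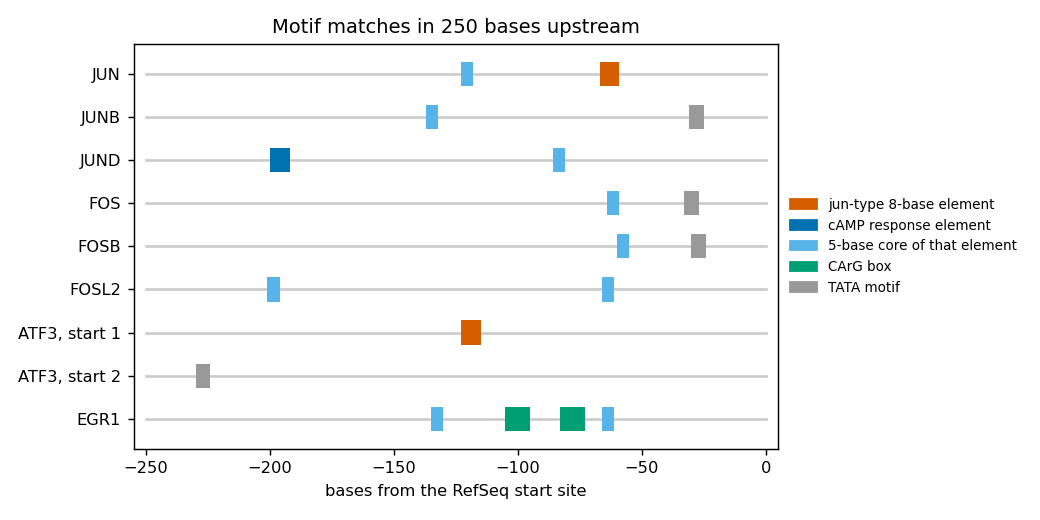
Positions of motif matches (coloured blocks) in the 250 bases upstream of each RefSeq start site, with distance from the start in bases on the horizontal axis and a line per gene, with 2 lines for ATF3. The jun-type element (TGACATCA) sits in JUN and at the first ATF3 start, the cAMP response element in JUND, and both CArG boxes in EGR1.

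Signals were on a log2 scale, and a floor was set at the median of all arrays together, log2 5.48, as no detection calls were used. Differences are given as log2 values of 2 arrays subtracted after flooring, so that 1 stands for 2-fold, and a fold against a floored value is a lower bound. Of the 23 member probe sets, 18 were over the floor in all arrays, 1 in the wild-type array alone, and 4 in none. The 4 were JUND 214326_x_at and 229117_s_at, FOSL2 205409_at and ATF3 1554420_at. Probe sets with names ending in _s_at or _x_at are called shared below, by that suffix alone, as probe sequences were not used. The medians of the arrays lay between 5.48 and 5.50. Of all probe sets 21.0% held one value in all arrays, as did 3 of the 23, all of JUND, so equal values cannot be read as equal transcript levels. KDM6B, the introduced gene, read 5.53 in control, 6.73 with wild-type and 6.45 with mutant JMJD3 on probe set 1556067_a_at, while 41387_r_at read 7.60, 7.66 and 7.65. On 1556066_at it read 6.02, 6.75 and 6.51, on 41386_i_at 6.99, 6.99 and 6.88, and on 213146_at 5.12 in every line, under the floor. Whether these probe sets lie in the introduced sequence is not stated.

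Of the markers of ductal and simple epithelium 5 of 6 were over the floor in every array, all but CDH1. The summed linear signal of all 6 was 15230 in control, 17479 with wild-type and 9854 with mutant JMJD3. The members did not move alike: with mutant KRT19 differed from control by 2.18 on the log2 scale and EPCAM by 0.90, but KRT8 by -1.09, KRT18 by -0.57 and KRT7 by -0.50. With wild-type KRT19 differed by 2.45, KRT7 by 1.14, KRT8 by 0.21, KRT18 by 0.07 and EPCAM by -0.34. The KRT19 value in control, 5.55, lay close to the floor, and KRT19 228491_at was under it in all lines. With the median over its probe sets KRT19 was at 0.47 with wild-type and 0.305 with mutant. No leukocyte or acinar marker on the array was over the floor in any line, 1 of 4 endothelial markers (PECAM1) was, and so were 3 of 6 fibroblast markers (COL1A1, DCN and PDGFRB). The sum over all 6 fibroblast markers, those under the floor included, was 1363 in control, 1942 with wild-type and 1513 with mutant. The 3 heat shock genes on the array that have a probe set of their own summed to 19583, 14273 and 18623 in control, wild-type and mutant, which is mostly HSP90AA1 (log2 14.05, 13.53 and 13.92). DNAJB1 differed from control by 0.48 with wild-type and 0.50 with mutant, and HSPH1 by -0.42 with wild-type and 0.14 with mutant. The part of these shifts in the results below was not tested. In bulk RNA, fewer expressing cells and less RNA per cell cannot be told apart.

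**Figure D2:**
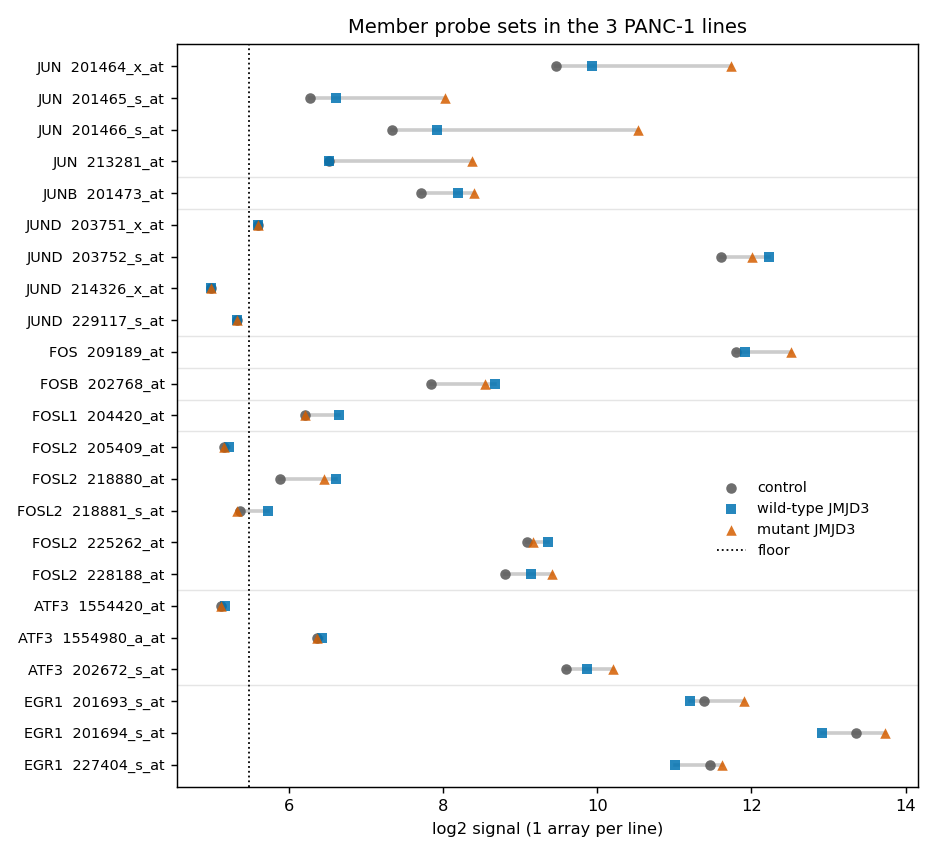
Log2 signal (horizontal axis) of each of the 23 member probe sets in the 3 lines, 1 array each, with a grey bar over their range and the floor dotted at 5.48. The 4 JUN probe sets have the mutant array far to the right, and the 3 EGR1 probe sets have the wild-type array to the left of control.

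JUN, the gene with TGACATCA close to its start, encodes c-Jun, the strongest activator of the JUN group. Its probe set with the highest mean signal, 201464_x_at, read 9.46 in control, 9.93 in the wild-type line and 11.73 in the mutant line. The mutant line stood well above both others, and the wild-type line lay between. Against control, JUN was 4.82-fold higher in the mutant line and 1.39-fold higher in the wild-type line, and wild-type was 3.48-fold lower than mutant. The mutant difference, 2.27, was the 19th highest above control among the 12707 genes measured in that comparison.

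All 4 JUN probe sets had the mutant array highest and differed from control by more than 2-fold there. Probe set 201466_s_at read 7.34 in control, 7.92 with wild-type and 10.53 with mutant, a mutant difference of 3.19. On 201465_s_at the values were 6.28, 6.61 and 8.03, and on 213281_at they were 6.52, 6.52 and 8.37. The mutant difference thus ran from 1.75 to 3.19 over the probe sets. The smaller wild-type difference ran from 0.00 to 0.58, and its lowest value came from 213281_at, the one JUN probe set not called shared. With that probe set standing for the gene the mutant difference was 1.85.

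JUNB, which activates more weakly than JUN and can restrain it, had 1 probe set. It read 7.72 in control, 8.20 in the wild-type line and 8.40 in the mutant line. Both JMJD3 lines were above control, by 0.48 and 0.68, and they were 0.20 apart. Among measured genes, 12.8% were at least as far above control with wild-type and 7.30% with mutant.

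JUND, the more steadily expressed JUN relative with TGACGTCA in its upstream window, read 11.61, 12.23 and 12.01 on 203752_s_at in control, wild-type and mutant. The wild-type line was highest, 1.54-fold above control, with mutant 1.32-fold above it. The other 3 JUND probe sets held 5.60, 5.33 and 4.99, each the same in every array. The JUND difference therefore rests on 1 probe set, which is called shared.

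None of the 4 FOS genes differed from control by 2-fold, and the order of the lines differed among them. FOS read 11.80 in control, 11.92 with wild-type and 12.52 with mutant, so the mutant line was 1.65-fold above control and the wild-type line 1.09-fold. FOSB read 7.84, 8.68 and 8.55, which put both JMJD3 lines above control, by 1.79-fold with wild-type and 1.64-fold with mutant. The FOSB value with wild-type, 0.84, was the largest member difference in that comparison, and 1.81% of measured genes were at least as far above control. FOS and FOSB each have 1 probe set, neither called shared.

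FOSL1 and FOSL2 encode FRA1 and FRA2, which lack the transactivation domain of FOS. FOSL1 read 6.21 in control, 6.65 with wild-type and 6.21 with mutant, so it was 1.36-fold higher with wild-type than in either other line. FOSL2 had 5 probe sets that did not move alike. On 225262_at, the one of highest mean signal, the values were 9.09, 9.36 and 9.17. On 228188_at they were 8.80, 9.14 and 9.42, with the mutant highest, and on 218880_at they were 5.88, 6.61 and 6.46. All 3 had control lowest, and the mutant difference ran from 0.08 to 0.62 among them. FOSL2 218881_s_at was over the floor with wild-type alone, at 5.73, at least 1.19-fold above the others.

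ATF3 encodes a stress-induced factor that can repress or activate with its partner. Probe set 202672_s_at read 9.59 in control, 9.87 with wild-type and 10.20 with mutant, so that control was lowest and mutant was 1.53-fold above it. Probe set 1554980_a_at of ATF3 read 6.37, 6.43 and 6.37, and did not show that order. The ATF3 difference rests on the shared probe set: the unshared 1554980_a_at gave 0.00 for mutant against control. The other unshared one, 1554420_at, was under the floor in all lines and gave no difference.

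EGR1, with both CArG boxes upstream, was the one member below control in a JMJD3 line, and its 3 probe sets gave one order. EGR1 read 13.36 in control, 12.92 with wild-type and 13.73 with mutant on 201694_s_at. The same order held on 201693_s_at (11.38, 11.21 and 11.90) and on 227404_s_at (11.46, 11.01 and 11.62). Wild-type was 1.36-fold below control and mutant 1.29-fold above it, and wild-type was 1.75-fold below mutant on the first of these. All EGR1 probe sets are called shared by their suffix, and none of these differences reached 2-fold.

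Set side by side, 8 of the 9 genes were above control with wild-type JMJD3, where 54.4% of 12697 measured genes were, and 8 were above it with mutant JMJD3, where 45.9% of 12707 were. The exceptions were EGR1 with wild-type and FOSL1, level with control, with mutant. Both comparisons share the control array. The 9 genes were chosen with earlier results of these data known, so their counts and medians are descriptions only. The shares above count genes strictly above control, and with mutant 58.8% of measured genes were level with or above it. With wild-type none of the 9 differed by 2-fold, against 2.26% of all measured genes in either direction. With mutant 1 did, JUN, against 2.98% of measured genes that were higher by 2-fold, and a count of 1 among 9 carries no statement about the group. The median member difference was 0.44 with wild-type and 0.61 with mutant, where the medians over all measured genes were 0.05 and 0.00. Without JUN the member medians were 0.36 and 0.51. Over the 7 members that have an unshared probe set, JUN among them, they were 0.27 and 0.68.

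Among measured genes the 5th and 95th percentiles of the difference were -0.74 and 0.65 with wild-type and -0.50 and 0.81 with mutant. One member lay outside that range in each comparison, FOSB with wild-type and JUN with mutant. Of the probe sets, 14 of 19 measured ones were above control with wild-type (46.7% of all measured probe sets were) and 15 of 18 with mutant (41.5%). Ties lower such shares. Of all probe sets, those under the floor included, 30.8% held the same value in control and wild-type and 31.5% in control and mutant. With mutant none of the 18 was below control and 3 were level. Control was the lowest array for 7 of the 9 genes, and for 25.3% of the 12867 genes over the floor in at least 1 array, ties not counted. The mutant array was the highest for 5, JUN, JUNB, FOS, ATF3 and EGR1, against 30.4% of those genes.

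**Figure D3:**
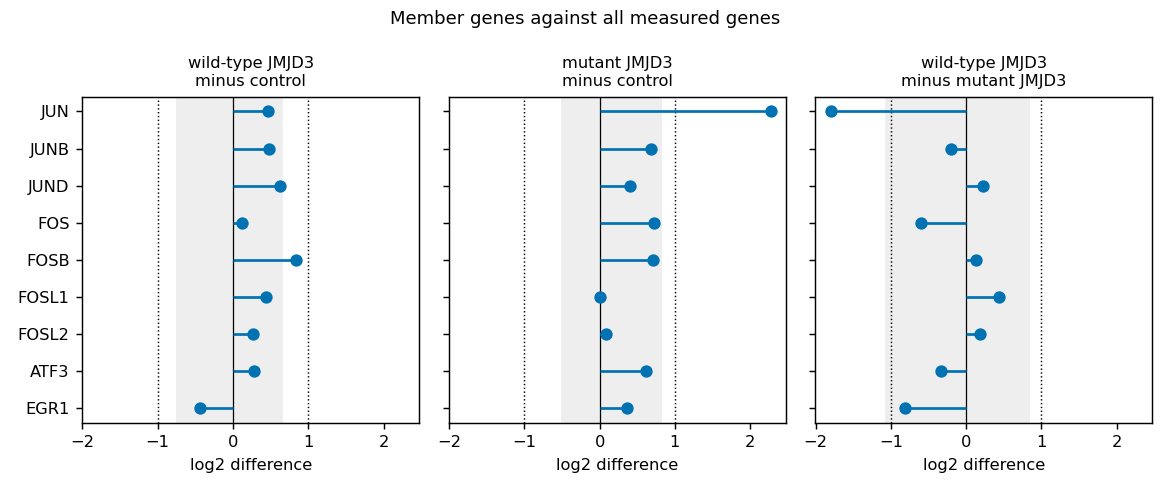
Log2 difference (horizontal axis) of each member gene in the 3 comparisons, with 2-fold dotted and the 5th to 95th percentile of all measured genes shaded grey. JUN passes 2-fold with mutant JMJD3 (2.27 against control, and wild-type at -1.80 against mutant), and in the first panels most other members lie above control and inside the shaded range.

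Wild-type against mutant JMJD3 does not involve the control array. There 5 members were lower with wild-type, JUN, EGR1, FOS, ATF3 and JUNB, and 4 were higher, where 40.5% of 12829 measured genes were lower. Genes level between these lines are not in that share. The values were -1.80 for JUN, -0.81 for EGR1, -0.60 for FOS, -0.33 for ATF3 and -0.20 for JUNB. FOSL1 at 0.44, JUND at 0.22, FOSL2 at 0.19 and FOSB at 0.13 were on the other side. JUN was the one member past 2-fold, against 6.2% of measured genes lower by 2-fold, and 0.52% were at least as far below. The member median was -0.20, that of all measured genes 0.00, and the member median was -0.04 without JUN and 0.06 over the 7 members with an unshared probe set. All 4 JUN probe sets were past 2-fold, from -1.42 to -2.61, where 6.43% of measured probe sets were lower by as much.

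Other genes of the early response were compared through a list of 31, of which 30 were measured. This list and those below were chosen with earlier results of these data known, so their counts are descriptions only. With mutant JMJD3 24 of these 30 were above control, 4 by 2-fold or more and none lower by as much, where 45.9% of all measured genes were above control and 2.98% by 2-fold. The list median was 0.38, beside 0.00 over all measured genes. DUSP2, a nuclear phosphatase that switches off MAP kinases, read 9.10 in control, 9.65 with wild-type and 11.13 with mutant. KLF2, KLF10 and KLF6, zinc finger factors induced by serum and TGF-beta among other signals, differed with mutant by 1.78, 1.09 and 1.05. The KLF2 value comes from shared probe set 219371_s_at, and the other KLF2 probe set, 226646_at, read 6.03, 6.01 and 6.01. KLF6 was at 0.69 without shared probe sets and at 0.28 with the median over its probe sets. GADD45B, a stress-response gene, was 0.98 above control and ZFP36, which speeds decay of AU-rich transcripts, 0.89. The nuclear receptor genes NR4A2 and NR4A3 went the other way in both JMJD3 lines. NR4A2 differed by -0.58 with wild-type and -0.79 with mutant, and NR4A3 by -0.91 and -0.42.

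With wild-type JMJD3 the list median was 0.21, with 19 of the 30 above control and 1 past 2-fold, where 54.4% of all measured genes were above and 2.26% past 2-fold. It was CCN2, a matricellular protein gene, at 1.06 (0.17 with mutant, and 0.99 against control with quantile normalization). TIPARP, a mono-ADP-ribosyltransferase gene, was below control at -0.82 and above it with mutant at 0.73. Directly against mutant, 24 of the 30 were lower with wild-type, 5 by 2-fold or more: TIPARP (-1.55), DUSP2 (-1.48), KLF2 (-1.43), KLF10 (-1.14) and MYC (-1.02). Of all measured genes 40.5% were lower there and 6.2% by 2-fold. The list median was -0.28.

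Other bZIP and EGR family genes, with the NAB corepressors of EGR proteins, had 16 measured members of 24. JDP2, which represses AP-1 as a partner of JUN, passed 2-fold with wild-type, reading 8.15, 9.20 and 8.50 in control, wild-type and mutant, and was at 0.68 with the median over its probe sets. ATF6, a membrane-bound factor of the unfolded protein response, passed it with mutant at 1.14. Its other probe sets differed there by 1.05 (231927_at), 0.45 (217550_at) and -0.37 (203952_at). Wild-type was below mutant by 2-fold or more for 3 of the 16, ATF6 (-1.52), ATF2, a JUN partner (-1.38), and NAB1 (-1.21), where 6.2% of all measured genes were. On their other measured probe sets of the smallest difference, ATF2 205446_s_at gave -0.05, NAB1 211139_s_at -0.11, and ATF6 203952_at 0.47. The remaining ATF6 probe sets gave -1.06 (231927_at) and -0.72 (217550_at). The list medians were 0.12 with wild-type and 0.26 with mutant.

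Genes known as AP-1 targets had 28 entries, of which 18 were measured with wild-type and 19 with mutant. With wild-type 17 of 18 were above control and 3 by 2-fold or more, with a median of 0.40, where 54.4% of all measured genes were above and 2.26% past 2-fold. These were PLAU, the urokinase protease (1.15), KRT7, a ductal keratin (1.14), and CD44, the hyaluronan receptor (1.01). With mutant 13 of 19 were above, 4 by 2-fold or more, with a median of 0.24, where 45.9% of all measured genes were above and 2.98% by 2-fold. GJA1, the connexin gene, read 5.54 in control, 6.13 with wild-type and 9.48 with mutant, and the chemokine gene CXCL8 was at least 2.95-fold higher with mutant, since control lay at the floor. CD44 (1.33) and PLAU (1.16) were the others. KRT7 was 0.50 below control there, on the log2 scale. Against mutant, wild-type was lower by 2-fold for GJA1 and CXCL8 and higher for KRT7 (1.64). With the median over their probe sets CD44 was at 0.78 with wild-type and 0.43 with mutant. On that median CXCL8 was at 0.42 and PLAU at 0.93 with mutant. The CD44 median takes in probe sets under the floor in all lines. On CD44 probe sets over the floor in all lines, wild-type differences ran from -0.27 to 1.35, most past 2-fold, and mutant differences from 0.43 to 1.33. Without shared probe sets KRT7 was at 0.21 for wild-type against control and 0.52 for wild-type against mutant. With the offset in place of the floor PLAU was at 0.85 with wild-type. Most of these genes also answer to other factors, and membership of the list does not show that AP-1 acts on them here. Since the list was chosen with earlier results of these data known, its counts carry no statement about AP-1 targets as a group.

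Many genes on the list of MAP kinase feedback, though not all, are induced by the pathway they restrain. The list had 19 measured members and none past 2-fold in any comparison. Of all measured genes 2.26% were past 2-fold with wild-type, 3.52% with mutant and 8.81% between them, so a count of 0 among 19 says little about this list. The list medians were 0.01 with wild-type and 0.16 with mutant. PHLDA1 differed by 0.91 and 0.70 and SPRY2, an inhibitor of growth factor receptor signalling, by 0.75 and 0.71 with wild-type and mutant. ETV5, an ETS factor, was 0.88 above control with mutant (-0.05 with wild-type), DUSP10, a JNK and p38 phosphatase, 0.79 (0.19), and ETV1 was at -0.98 with wild-type (-0.02 with mutant). DUSP4, an ERK phosphatase, stood at -0.53 with wild-type and 0.16 with mutant.

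Of 24 upstream kinases and factors 20 were measured, with medians of -0.13 with wild-type and -0.02 with mutant. ELK3, a serum response factor partner, was the one past 2-fold with mutant, where 2.98% of all measured genes were higher by 2-fold. It read 8.25 in control, 8.14 with wild-type and 9.71 with mutant, while ELK3 206127_at was under the floor in all lines. Wild-type was below mutant by 2-fold or more for ELK3 (-1.57) and MAPK9, where 6.2% of all measured genes were. With the median over its probe sets ELK3 was at 0.685 for mutant against control and -0.74 for wild-type against mutant. MAPK9, which encodes the JUN kinase JNK2, read 8.87, 8.49 and 9.64, and wild-type was 1.15 below mutant on the log2 scale. MAPK9 225781_at went the same way, at -1.06, and 210570_x_at at -0.83. ELK4 stood at -0.82 and MAP2K6, a p38 kinase, at -0.77 with wild-type. Of 13 genes of JUN and FOS turnover or cofactors 11 were measured. HIPK2, a nuclear kinase, was the one past 2-fold, beside the same shares of all measured genes. It was at 1.11 for mutant against control and -1.46 for wild-type against mutant. Both were 0.00 with the median over its probe sets. For mutant against control HIPK2 225116_at gave 0.60, 225097_at 0.24 and 3 further measured probe sets 0.00. FBXW7, which targets JUN for degradation, was at -0.48 with wild-type and 0.03 with mutant.

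**Figure D4:**
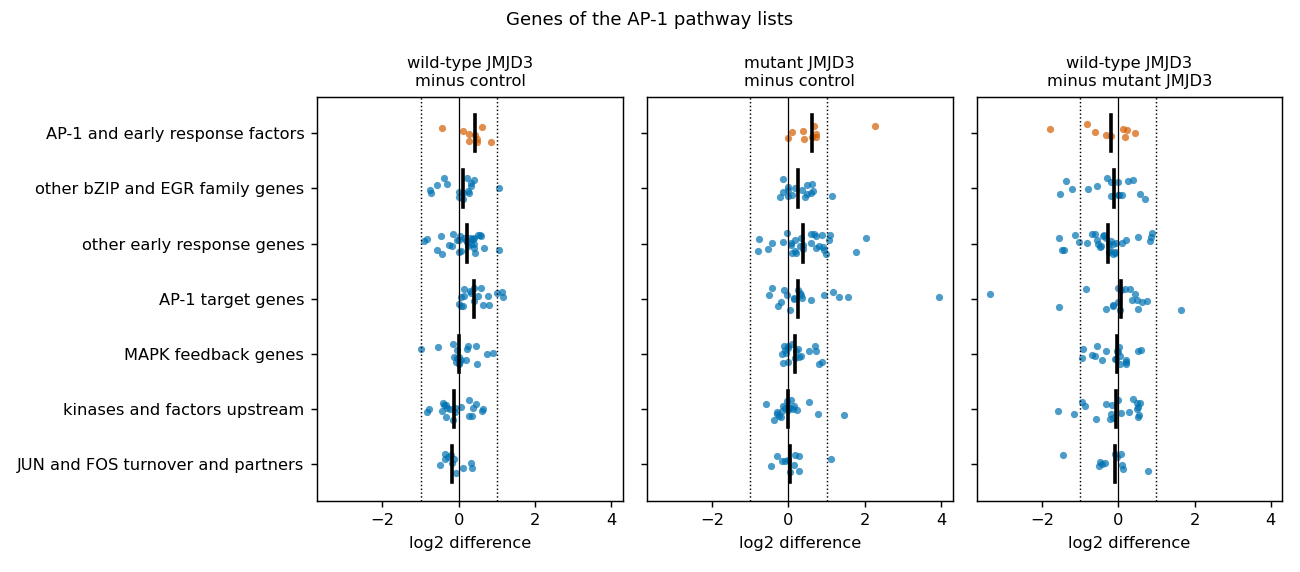
Log2 differences (horizontal axis) of the measured genes of each list in the 3 comparisons, 1 point per gene, with the list median as a black bar, 2-fold dotted and the 9 AP-1 and early response factors in orange. Points of the early response list lie mostly above control with mutant JMJD3 (24 of 30) and below mutant with wild-type (24 of 30), and MAPK feedback genes stay within 2-fold.

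The genes whose pattern was most like that of JUN were sought among the other 12155 genes over the floor in all 3 arrays, by the distance between the pairs of differences from control. The nearest were SHANK2, a synaptic scaffold gene (0.50 with wild-type and 2.44 with mutant), C11orf96 (0.56 and 2.08), NATD1 (0.39 and 2.07), DUSP2 (0.55 and 2.03) and FN1, the fibronectin gene (0.73 and 2.47). Their distances from JUN ran from 0.17 to 0.33. The likeness rests on 3 arrays and on the probe set of highest mean signal. With the median over their probe sets the mutant difference was 0.11 for SHANK2, 0.69 for C11orf96 and 0.95 for NATD1.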

How the data were processed

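The authors deposited log2 signals for 54613 probe sets in 3 arrays, from 2.42 to 14.94. MAS5 is named, per the submitters' processing notes, without settings. No source used here says how the arrays were made comparable, and the sorted columns differed by at most 0.14. The platform annotation gave 41091 probe sets a single gene symbol, 1801 carried several and were left unnamed, and 11721 were not listed. Gene identifiers of 41037 matched RefSeq (GRCh38.p14), used for names and upstream sequence. The probe set of highest mean signal stood for a gene. Probe sets ending in _s_at or _x_at were taken as shared. The calculation was tested on simulated data.

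The members and lists were chosen with earlier results of these data known. Besides all members and KDM6B, the rule names up to 4 genes per list and comparison with the largest difference (5 for early response genes) and the 5 nearest to JUN, and the text leaves out some of the smaller ones. The 7 alternatives changed scaling, floor, probe set choice or shared probe sets. The work used matplotlib 3.10.9, pandas 2.3.3, numpy 2.4.6 and Python 3.11.15.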

Additional observations from a re-analysis of the deposited data

How the results depend on the processing

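All 180 member values under the 7 alternatives stayed on their side of 2-fold, and 2 changed sign, both of ATF3 between wild-type and mutant (0.06 without shared probe sets and with the median over probe sets). The JUN difference between mutant and control ran from 1.85 to 2.52. Without shared probe sets JUND and EGR1 drop out, and the member median over the remaining 7 genes was 0.27 for wild-type against control and 0.06 for wild-type against mutant. The offset in place of the floor made the former 0.29, and taking the median of each gene's probe sets made the latter -0.07. Of the genes of all 6 lists, 5 of 114 measured were past 2-fold with wild-type against control, beside 2.26% of all measured genes. The count was 3 with quantile normalization, with the median over probe sets or without shared probe sets, and 2 with the offset. With mutant against control 11 of 115 were, beside 3.52%, and 4 with the median over probe sets and 6 without shared ones. Between wild-type and mutant 14 of 115 were, beside 8.81%, and 9 with the median over probe sets. Fewer genes are measured when shared probe sets are left out, and the cause of the other shifts was not tested. KLF2 with mutant was -0.02 without shared probe sets. The share of all measured genes past 2-fold with wild-type ran from 1.11% to 2.37%. With mutant it ran from 1.91% to 4.0%, and between wild-type and mutant from 5.36% to 10.03%. No paired analysis was possible because each group has 1 array.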
